A study of Macaca fascicularis with 2 samples.

Results

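SFRP2-positive cells were cells of the cartilage and disc of young cynomolgus monkeys (Macaca fascicularis) in which SFRP2 stood at 50 rpm or more (rpm, reads of a gene per 1000000 reads of the cell). They were sought among the 5311 cells that carried a single sample tag and held fewer than 5 reads of KRT19, a keratin of notochordal cells, and 246 of these cells (4.63%, exact Clopper-Pearson 95% interval 4.08 to 5.23) met the limit, out of 5723 cell columns in all. The cells came from articular cartilage (AC) of the femoral condyle and gelatinous nucleus pulposus (NP) of a lumbar disc, taken from 2 wild type male monkeys that were 3 years old. AC3 and NP3 came from one monkey and AC4 from the other, and the cells were released with an enzyme, tagged, sorted for live tagged cells and read in 1 TAS-seq library, a bead-based single-cell method that amplifies whole cDNA. The labels list 3 tissue samples, whereas the cells carried 4 tags (A951, A952, A953 and A954), and no source used here pairs a tag with a tissue or a monkey. Whether the SFRP2-positive cells were disc cells or cartilage cells was therefore not analysed here, and they are named only by SFRP2. The KRT19 limit set aside 76 cells in A951, 271 in A952, 6 in A953 and 10 in A954. With 1 library, cells are not replicates of a condition, so no test was run, and levels are given with their values in each tag. Intervals are of shares of cells and cover counting error only, not differences between animals or tissue samples. The counts are reads and not molecules.

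SFRP2 encodes a secreted frizzled-related protein. Its cysteine-rich domain resembles the part of the frizzled receptors that binds WNT proteins, so that the family is known above all as soluble modulators of WNT signaling, and SFRP2 itself is a common marker of fibroblasts in connective tissue. In cartilage and disc, WNT signaling is held down by several secreted inhibitors, among them FRZB, WIF1 and members of the DKK family, while BMP signaling is limited by secreted antagonists such as GREM1 and the chordin family.

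A small group of cells in every tag held most of the SFRP2 reads. The share of SFRP2-positive cells was 4.56% (42 of 921 cells, exact Clopper-Pearson 95% interval 3.31 to 6.11) in A951, 4.18% (36 of 861, 2.95 to 5.74) in A952, 5.59% (77 of 1377, 4.44 to 6.94) in A953 and 4.23% (91 of 2152, 3.42 to 5.17) in A954. These intervals overlapped one another. The median SFRP2 level of the positive cells was 230.3 rpm in A951, 233.0 rpm in A952, 204.3 rpm in A953 and 221.8 rpm in A954, and single cells ranged from 50.7 to 3641 rpm. SFRP2 stood at 200 rpm or more in 135 of the 246 cells and at 1000 rpm or more in 18. A positive cell held a median of 55.5 SFRP2 reads (5 to 629), and the positive cells together held 95.4% of all SFRP2 reads of the KRT19-low cells. All these values chose the cells and describe them only.

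**Figure D1:**
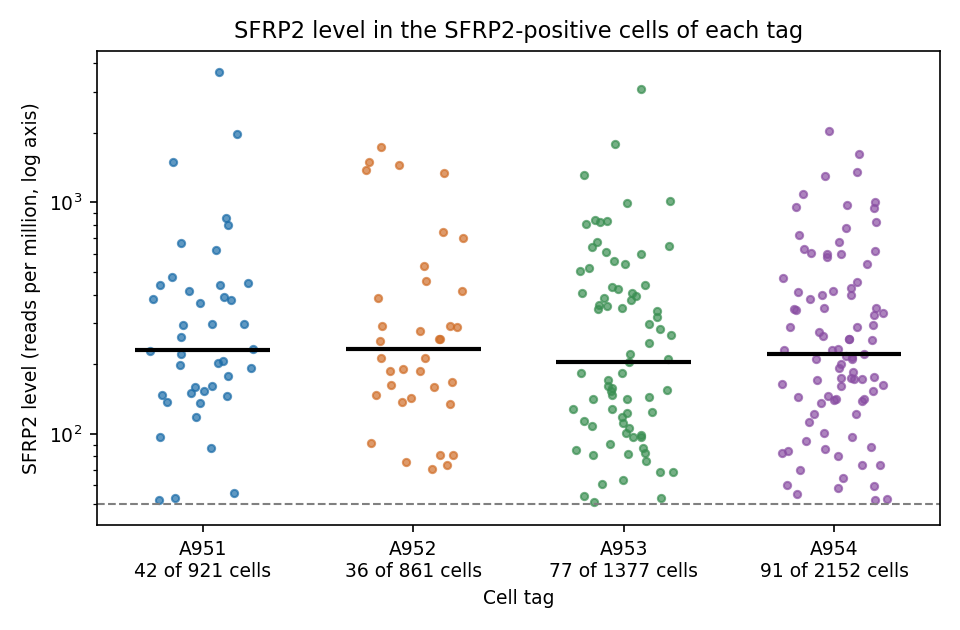
SFRP2 level (rpm, log axis) of each SFRP2-positive cell by tag; 1 point is 1 cell, black bars are medians and the dashed line is the limit of 50 rpm. The 4 medians lie between 204.3 and 233.0 rpm, and each tag has cells above 1000 rpm.

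Of the remaining KRT19-low cells, 4705 (88.6%) had 0 SFRP2 reads and 360 (6.78%) had SFRP2 reads below the limit. In 236 of those 360 cells the signal was 1 read. The cells nearest the limit were at 50.7, 51.8 and 51.9 rpm inside it and at 48.2, 48.2 and 47.5 rpm outside it. Among the 363 cells with 5 or more KRT19 reads, 13 (3.58%, 1.92 to 6.05) had an SFRP2 read, with at most 2 reads in a cell, and 0 reached 50 rpm, which allows a share of up to 0.826% by a limit of 3 counts (exact Clopper-Pearson upper bound 1.01%). The KRT19-low cells had an SFRP2 read in 11.4% (10.6 to 12.3) at a similar median depth of 199212 reads against 172935 in the KRT19 cells. KRT19 itself entered the rule, so this contrast is a description.

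To describe the other genes, each SFRP2-positive cell was paired with a cell of the same tag that had 0 SFRP2 reads and a similar number of genes detected. All 246 cells found a partner. The median was 3916.5 genes in both groups, with 210145 reads in the positive and 210252 in the matched cells, and mitochondrial reads took a median of 1.43% and 1.45%. Levels were compared as pooled rpm (the reads of a gene over all reads of the group) over 9756 genes with a read in at least 10% of the cells of either group. The median log2 ratio over these genes was -0.00, and the 5th and 95th percentiles were -1.05 and 0.96.

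At least 2-fold higher pooled levels were found for 461 of the 9756 genes (4.73%) and at least 2-fold lower levels for 528 (5.41%). This balance depended on the cells compared: the counts were 134 higher and 436 lower against up to 10 matched cells for each positive cell, and 104 and 431 against all cells with 0 SFRP2 reads. Requiring the same direction in all 4 tags left 164 higher (1.68%) and 209 lower genes (2.14%). Many of these genes were scarce, and 1 cell could hold a large part of their reads. A narrower set was therefore formed after the values had been seen, from 3141 genes with a read in at least 50% of the cells of either group: genes at least 1.5-fold apart against 1 matched cell and also against up to 10 matched cells for each positive cell, with the same direction in the 4 tags and in the mean of log2(rpm + 1). It held 12 higher genes (0.382% of the 3141) and 42 lower genes (1.34%). The higher genes were GREM1, MYH10, GASK1A, WIF1, C1QL1, LRIG1, EVI5, SIL1, COL14A1, ABI3BP, FBN1 and TGFB2, and the lower genes included COL1A1, COL1A2, COL6A3, LUM, CRTAC1, CNMD, PTH1R, PROCR, THBS3 and MT1E.

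Cartilage matrix genes were abundant and nearly level between the groups. Each of the 246 SFRP2-positive cells held COL2A1, the main collagen of hyaline cartilage, and ACAN, its large proteoglycan aggrecan, at 50 rpm or more. So did each of the 246 matched cells, and COL2A1 reached this level in all 5311 KRT19-low cells. These shares therefore do not set the groups apart. COL2A1 was at 25859 rpm in the positive and 22736 rpm in the matched cells of A951, at 25414 and 25829 rpm in A952, at 17219 and 19675 rpm in A953, and at 19561 and 19291 rpm in A954. The order of the 2 groups thus changed with the tag. Over all tags the log2 ratio was -0.03 for COL2A1, 0.13 for ACAN and 0.21 for BGN, the small proteoglycan biglycan. Of the 20 genes on the list of cartilage matrix genes, 17 were counted in the file and 15 compared: 7 had a ratio above 0 and 8 below, with a median of -0.01. No gene of the list was 2-fold higher (4.73% of all genes), and those that were 2-fold lower (5.41% of all genes) were CNMD, the anti-angiogenic chondromodulin, in all 4 tags (78.4 against 189 rpm, log2 ratio -1.27), and MATN4, a matrilin, which was lower in A952, A953 and A954 but not in A951 (23.8 against 49.3 rpm, -1.05). Among 11 cartilage transcription factors compared, SOX9 had a ratio of 0.16 and SOX5 of -0.07, and the scarce BARX2 and RUNX3 were 2-fold higher but not in all 4 tags, and not against up to 10 matched cells (0.84 and 0.50). By markers, the SFRP2-positive cells were thus cells with a cartilage matrix, as the matched cells were. Of 24 fibroblast and mesenchymal identity genes, 13 could be compared, with a median of -0.07 beside -0.00 for all genes. PDGFRA had a ratio of -0.12 and THY1 of 0.00, and CD34 was lower in all 4 tags (5.81 against 20.7 rpm, -1.83). A CD34 read was found in only 8.54% of the positive and 16.7% of the matched cells. The highest single cell was at 967 rpm in the positive and 3459 rpm in the matched group, so few cells shaped this ratio. MKX (3.92 against 1.67 rpm, 1.23) and EGR2 (27.9 rpm in the positive cells, 1.22) were 2-fold higher but neither in all 4 tags nor against up to 10 matched cells (0.80 and 0.20), and PI16 had 0 reads in both groups.

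Among the 12 higher genes of the narrower set, GREM1 had the largest log2 ratio. It encodes gremlin 1, a secreted antagonist of BMP proteins. Its pooled level was 441 rpm in the positive against 58.2 rpm in the matched cells of A951, 376 against 105 rpm in A952, 248 against 116 rpm in A953, and 325 against 109.5 rpm in A954. The positive cells were higher in every tag, and the lowest value among them lay above the highest of the matched cells. Over all tags the level was 320 against 104 rpm (log2 ratio 1.62, and 1.16 against up to 10 matched cells). The median cell held 83.7 rpm in the positive group and 2.97 rpm in the matched group. GREM1 stood at 50 rpm or more in 55.7% of the positive cells (exact Clopper-Pearson 95% interval 49.2 to 62.0) and in 28.9% of the matched cells (23.3 to 35.0). Thinning to 50000 reads kept 243 pairs and left out 3. A GREM1 read was then found in 66.3% of the positive and 39.5% of the matched cells. Unthinned, the shares were 75.6% and 55.3% of the 246 cells of each group. SFRP2-positive cells nevertheless made up only 8.36% of the 1639 KRT19-low cells with GREM1 at 50 rpm.

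Another BMP antagonist, the chordin-like CHRDL1, was also higher in each tag, at 60.6 against 13.7 rpm over all tags (log2 ratio 2.14). It reached 50 rpm in 15.04% of the positive and 6.50% of the matched cells, and its level depended on the tag: 56.6 against 18.4 rpm in A951, 67.1 against 32.9 in A952, 3.07 against 1.45 in A953 and 113 against 17.3 in A954. In A953 it was thus low in both groups. The share of cells with CHRDL1 at 50 rpm was 11.9% in both groups of A951, and without A954 the log2 ratio was 1.28. The list of BMP and TGF-beta antagonists and responses had 23 genes, of which 17 could be compared. Its median was 0.19, 12 genes were above 0, and GREM1 and CHRDL1 were the members past 2-fold in the higher direction, where 4.73% of all genes stood. LTBP3, a binding protein of latent TGF-beta, was higher in each tag without reaching 2-fold (1098 against 789 rpm, 0.48). The ratios of the ID genes on this list, which BMP signaling is known to induce, were -0.38 for ID1, -0.30 for ID2, 0.15 for ID3 and 0.40 for ID4, and that of SMAD7 was -0.09. The direction of each differed among the tags. Among the ligands, TGFB2 was higher in all 4 tags (330 against 207 rpm, 0.67), BMP2 was nearly level (764 against 732 rpm, 0.06) and BMP4, a scarce transcript, was lower in all 4 (1.28 against 11.3 rpm, -3.15).

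**Figure D2:**
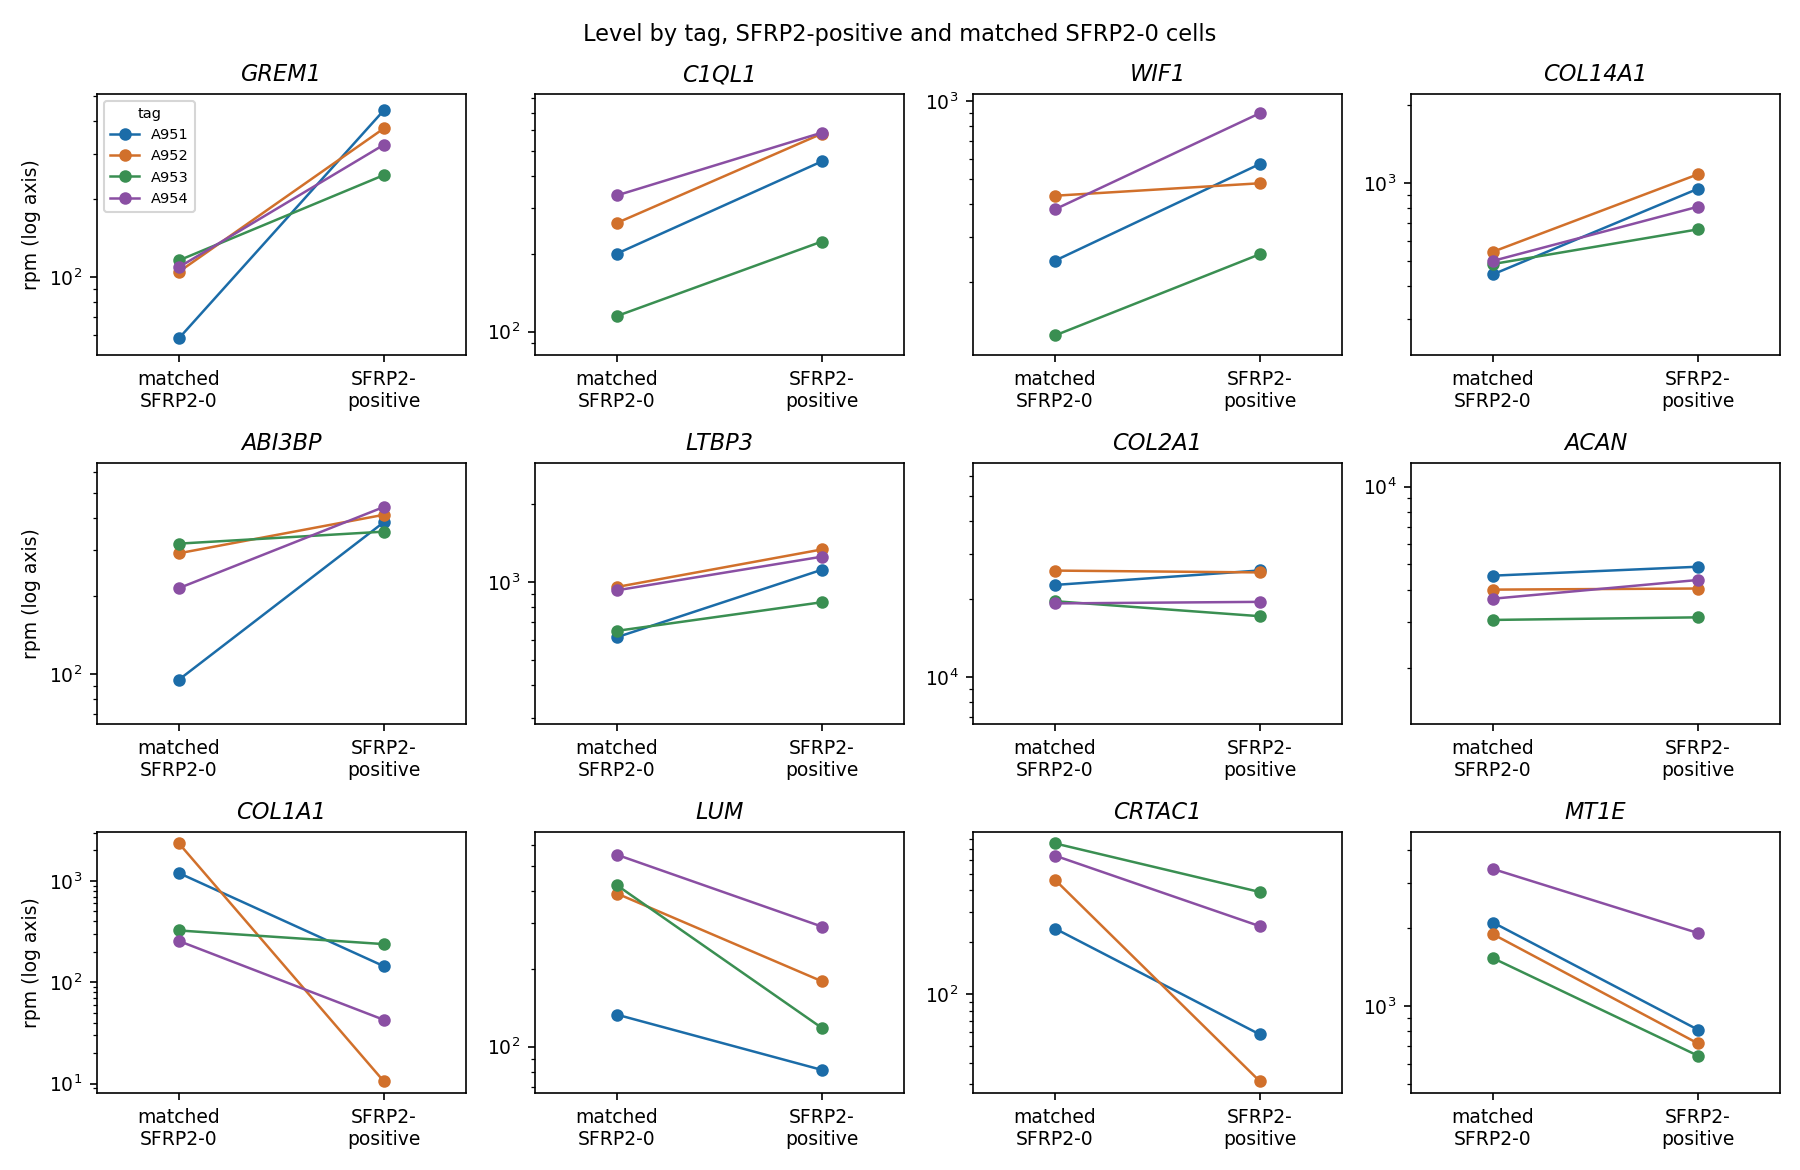
Pooled level (rpm, log axis, a separate scale in each panel) of 12 genes in SFRP2-positive cells and matched SFRP2-0 cells; 1 line is 1 tag. GREM1, C1QL1, WIF1, COL14A1, ABI3BP and LTBP3 go up in every tag, COL2A1 and ACAN stay nearly level, and COL1A1, LUM, CRTAC1 and MT1E go down in every tag.

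Within the WNT pathway, WIF1 was the secreted inhibitor past 2-fold in the higher direction. WIF1 binds WNT proteins outside the cell and was at 573 against 243 rpm in A951 and 483 against 432 rpm in A952. In A953 it was at 257 against 125 rpm, and in A954 at 899.6 against 383 rpm. It was higher in each tag, by little in A952. Over all tags the log2 ratio was 1.05 (574 against 277 rpm), and it was under 2-fold against up to 10 matched cells (0.92) and with cells thinned to 50000 reads (0.88). In single cells the median was 383 against 80.8 rpm, and 71.1% of the positive cells (65.0 to 76.7) reached 50 rpm against 52.8% of the matched cells (46.4 to 59.2). In A952 alone this share was not higher in the positive cells (63.9% against 66.7%). FRZB, the frizzled-related protein abundant in cartilage, was nearly level (1670 against 1753 rpm, -0.07), and so was SFRP5 (335 against 319 rpm, 0.07). DKK3, another secreted glycoprotein of the DKK family, was lower in all 4 tags at a low level (3.57 against 16.7 rpm, -2.23). All 13 secreted inhibitors on the list were counted and 7 could be compared, with a median ratio of 0.07 and 5 above 0. Of these 7, WIF1 was the 1 gene 2-fold higher and DKK3 the 1 gene 2-fold lower. Among all genes, 4.73% were 2-fold higher and 5.41% 2-fold lower. SFRP1, of the same family as SFRP2, was at 123 against 98.0 rpm (0.33), lower in A951 and A953 and higher in A952 and A954.

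WNT ligands themselves were scarce in both groups. Of 19 on the list 5 could be compared, and their levels summed over all counted members came to 17.1 rpm in the positive and 44.8 rpm in the matched cells. By tag these sums were 24.1 and 9.18 rpm in A951, 9.29 and 9.55 rpm in A952, 16.3 and 41.2 rpm in A953, and 17.9 and 73.3 rpm in A954, so that their order changed. All 5 had ratios below 0, with a median of -0.90. This median was -0.47 against up to 10 matched cells, -0.04 by the mean of log2(rpm + 1), and 0.42 in A951. Past 2-fold in the lower direction, where 5.41% of all genes stood, were 2, WNT7B and WNT9A. Neither was lower in all 4 tags. Of 16 receptors and coreceptors 6 could be compared, with a median of -0.11. Among 14 mediators and targets, AXIN2, a common feedback target of WNT signaling, was lower in each tag (6.29 against 21.6 rpm, -1.78), although against up to 10 matched cells the ratio was -0.31. MYC was lower in each tag as well (219 against 381 rpm, -0.80). CTNNB1, which encodes beta-catenin, was at 251 against 217 rpm (0.21).

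Fibrous matrix genes split in 2 directions. COL14A1, a collagen that sits on the surface of collagen fibrils, was at 952.5 against 445.4 rpm in A951, 1084 against 544.5 rpm in A952, 664 against 488 rpm in A953 and 812 against 502 rpm in A954. The 4 values of the positive cells lay above those of the matched cells without overlap, with a log2 ratio of 0.72 over all tags (813 against 494 rpm). COL14A1 reached 50 rpm in 90.2% of the positive (85.8 to 93.6) and 76.0% of the matched cells (70.2 to 81.2). FBN1, which encodes fibrillin 1 (96.4 against 59.4 rpm, 0.70), and MFAP4, a microfibril-associated protein (55.5 against 23.6 rpm, 1.23) were higher in all 4 tags too. MFAP4 was the only gene of the list that was 2-fold higher, 1 of 20 compared, where 4.73% of all genes stood.

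The genes of type I collagen, a fibrillar collagen of fibrous tissue, went the other way. COL1A1 was at 144 against 1195 rpm in A951, 10.6 against 2344 in A952, 238 against 324.5 in A953 and 42.7 against 255 in A954, with a log2 ratio of -2.47 over all tags. This gap lay in few cells: the median cell held 8.55 rpm in the positive and 8.89 rpm in the matched group, while 9 of 246 positive cells (3.66%, 1.69 to 6.83) and 30 of 246 matched cells (12.2%, 8.38 to 16.9) had COL1A1 at 50 rpm or more. A single positive cell held 35.4% of all COL1A1 reads of its group. COL1A2 followed with 437 against 915 rpm (-1.07) and COL6A3 with 49.7 against 101 rpm (-1.03). LUM, the fibril-binding proteoglycan lumican, was at 81.3 against 133 rpm in A951, 179 against 390 in A952, 118 against 419.8 in A953 and 291 against 551 in A954. It reached 50 rpm in 23.2% of the positive (18.0 to 29.0) and 43.9% of the matched cells (37.6 to 50.3). In all cells with 0 SFRP2 reads this share was 34.8%, lower than in the matched cells. FBLN5, an elastic fiber gene at 3.01 against 7.36 rpm, was the fifth gene 2-fold lower, and all 5 were lower in each tag. They were 5 of 20 genes compared, where 5.41% of all genes were 2-fold lower and 2.14% also lower in each tag. Against up to 10 matched cells LUM (-0.70) and FBLN5 (-0.82) were under 2-fold, and with cells thinned to 50000 reads COL6A3 was (-0.91). ELN, which encodes elastin, was at 61.1 against 78.5 rpm (-0.36) and was lower in A951, A952 and A953 but not in A954. DCN, FMOD and FN1 were nearly level (0.14, 0.04 and -0.07). COL3A1, another fibrillar collagen gene, was nearly level too, at 1290 rpm in the median positive and 1265 rpm in the median matched cell. Its log2 ratio was -0.09 with cells thinned to 50000 reads. The list as a whole, 20 of 25 genes compared, had a median of -0.07, close to that of all genes.

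Several genes of the cartilage surface and of fibrocartilage were lower. CRTAC1, a secreted cartilage acidic protein, was at 58.4 against 240.4 rpm in A951, 31.2 against 461.5 in A952, 392 against 750.5 in A953 and 248 against 637 in A954 (log2 ratio -1.29 over all tags). It reached 50 rpm in 29.3% of the positive and 41.5% of the matched cells. THBS4 was lower in all 4 tags (36.4 against 104 rpm, -1.51), as was PROCR, the endothelial protein C receptor (291 against 564 rpm, -0.95). ASPN, the proteoglycan asporin, had a ratio of -1.02 over all tags, but it was higher in the positive cells of A951 (2.38) and much lower in A954 (-2.08), and under 2-fold against up to 10 matched cells (-0.79). PRG4, which encodes lubricin, was at 8922 against 12159 rpm (-0.45) and was also not lower in A951. ABI3BP, an extracellular matrix binding protein on the same list, was higher in all 4 tags (399 against 245 rpm, 0.71). All 16 genes of the list were compared. Their median was -0.26, with 10 below 0, 3 past 2-fold in the lower direction and 0 in the higher, where 5.41% and 4.73% of all genes stood. The median was 0.09 in A951 and -0.04 by the mean of log2(rpm + 1).

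**Figure D3:**
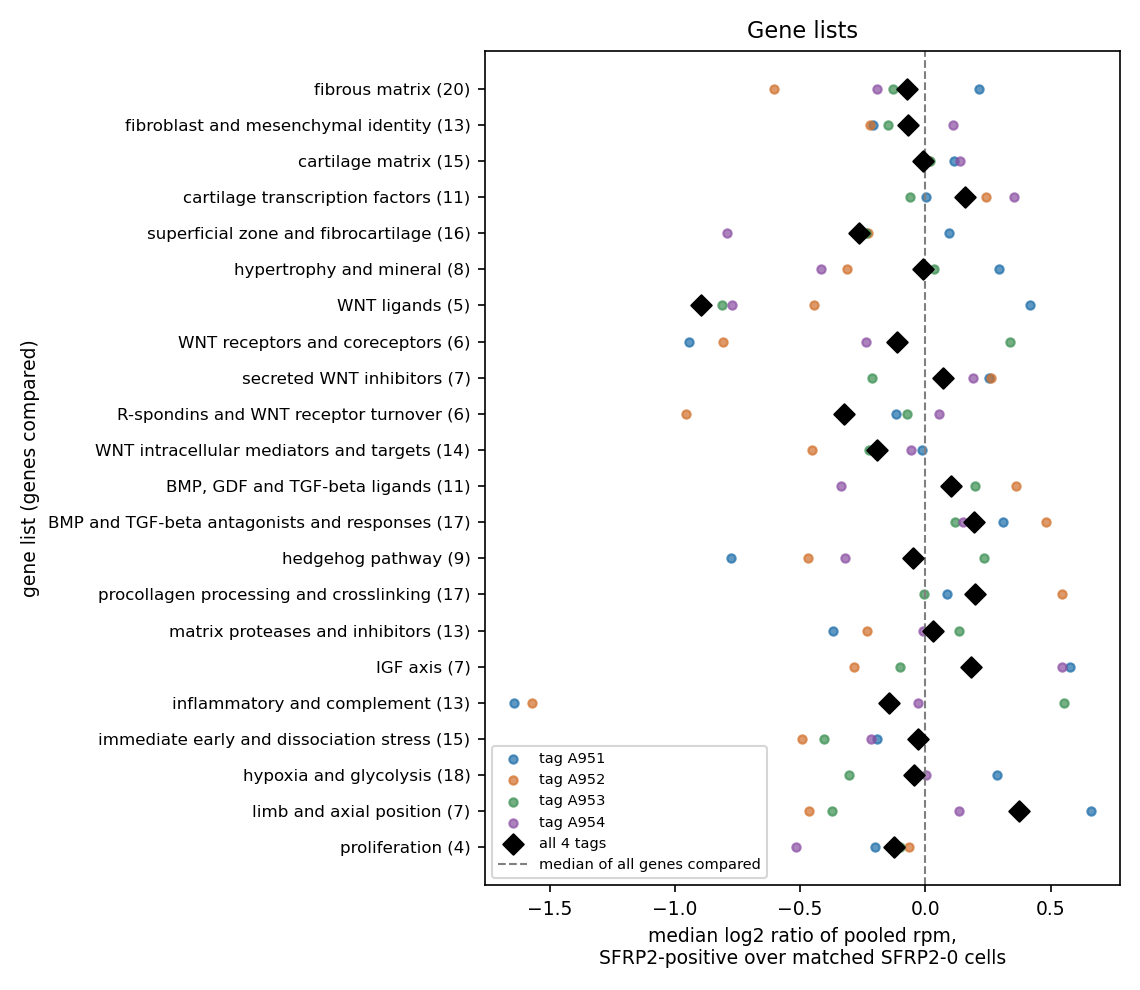
Median log2 ratio of pooled rpm, SFRP2-positive over matched SFRP2-0 cells, for 22 gene lists (number of genes compared in brackets); diamonds are all tags together, small points single tags, and the dashed line is the median of all genes. Cartilage matrix sits at -0.01 with little spread, while short or scarce lists such as WNT ligands scatter widely among the tags.

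Beyond these groups, C1QL1, a secreted protein with a C1q domain, was higher in each tag: 454 against 200.02 rpm in A951, 581 against 263 in A952, 223 against 115 in A953 and 586 against 336 in A954. Its median cell level was 256 against 14.9 rpm. GASK1A, a protein of the Golgi-associated kinase family, was at 118 against 47.7 rpm (1.304). MYH10, a non-muscle myosin heavy chain, was at 80.3 against 28.1 rpm (1.52) and MYL9, a regulatory myosin light chain, at 60.6 against 14.6 rpm (2.05), both higher in all 4 tags. IGFBP3, an IGF binding protein, was the member of the IGF list past 2-fold (83.6 against 30.7 rpm, 1.45). It was 1 of 7 genes compared, where 4.73% of all genes were 2-fold higher. IGFBP7 was at 844.5 against 563.3 rpm (0.58). Of the 17 collagen processing genes compared, 12 were above 0 (median 0.20), where 49.9% of all genes stood. Past 2-fold in the higher direction were 3, where 4.73% of all genes stood, and 0 of them in all 4 tags. Among them, the collagen crosslinking enzyme LOX was at 81.8 against 37.1 rpm (1.14) without being higher in A953. Its ratio was 0.62 against up to 10 matched cells. In the hedgehog list SHH was scarce, at 0.240 against 0.584 rpm. In the list of matrix proteases MMP1, an interstitial collagenase, was at 16.5 against 205 rpm (-3.63) but higher in the positive cells of A951.

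By the ranking of all genes with a read in at least 20% of the cells of either group and a constant direction in the tags, the 15 highest log2 ratios included those of MVB12B (2.98), METTL26 (2.29), GNAQ (2.25), CHRDL1, MYL9, DCBLD1 (1.89), USP40 (1.87), ANAPC1 (1.85), TKFC (1.82), BCLAF3 (1.80), RNF150 (1.75), EPB41 (1.72) and NFASC (1.66). Except for CHRDL1 and MYL9, these were scarce genes: GNAQ, a G protein subunit, was at 17.7 against 3.71 rpm, and 1 cell held 45.4% of its reads in the positive cells. Against up to 10 matched cells the ratios were smaller for all of the genes just named: 0.67 for GNAQ, 0.91 for METTL26, 0.66 for USP40, 0.74 for ANAPC1 and 0.67 for NFASC, thus under 2-fold, and 1.01 to 1.70 for the others, with 1.22 for MYL9 and 1.70 for CHRDL1. With matching on total reads within the tag, MVB12B (0.17), RNF150 (0.10), TKFC (0.41) and BCLAF3 (0.52) were under 2-fold as well, and with matching over all tags EPB41 (0.38) and GNAQ (0.13) were, and MYL9 was at 0.97. The 10 lowest ratios were those of GAST (-3.75), SLC8A3 (-3.24), SPON2 (-3.17), BMP4, FGFBP2 (-2.76), SEMA3D (-2.76), FBXO42 (-2.54), COL1A1, PLEKHA7 (-2.40) and SGSM3 (-2.38). By the difference of mean log2(rpm + 1), SEMA3D was at -1.26 and the others were under 2-fold, with -0.15 for GAST, -0.13 for SLC8A3 and -0.15 for PLEKHA7. A GAST read was found in 32.5% of the positive and 32.1% of the matched cells, and an SLC8A3 read in 20.7% and 19.1%. SEMA3D, a secreted semaphorin, was at 1.84 against 41.0 rpm in A951, 1.91 against 124 in A952, 27.1 against 49.9 in A953 and 9.46 against 142.5 in A954, and the positive cells of all tags lay below the matched cells of all tags. FGFBP2, a binding protein of fibroblast growth factors, was at 13.0 against 88.5 rpm.

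A pair of genes outside that ranking stood out and were chosen after their values had been seen. MSMP, which encodes a microseminoprotein described as a secreted chemoattractant, was at 2219 against 148 rpm in A951, 36.5 against 1216 in A952, 5592 against 102 in A953 and 343 against 109.6 in A954. The positive cells were higher in 3 tags and lower in A952, and the ratio over all tags was 3.27. A single positive cell held 41.6% of these MSMP reads and a single matched cell 60.1%, while the share of cells at 50 rpm was 13.0% (exact Clopper-Pearson 95% interval 9.07 to 17.9) in the positive and 9.76% (6.35 to 14.2) in the matched cells. SLC14A1, a urea transporter, was lower in each tag, at 1.68 against 28.0 rpm (-4.06). It reached 50 rpm in 5 of 246 positive cells (2.03%, 0.663 to 4.68) and 20 of 246 matched cells (8.13%, 5.04 to 12.3). Among all cells with 0 SFRP2 reads the share was 4.74%, lower than in the matched cells.

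These genes were also followed across SFRP2 levels. When the positive cells were divided at their median of 221.3 rpm, GREM1 was at 277 rpm in the 123 cells below and 381 rpm in the 123 cells above, against 153 rpm in all cells with 0 SFRP2 reads. COL14A1 was at 716, 949 and 519.6 rpm in the same order, and WIF1 at 490.3, 689.9 and 327 rpm. CRTAC1 was at 243, 248 and 723 rpm, and COL2A1 at 20295, 20413 and 20108 rpm. The 360 cells with SFRP2 reads below 50 rpm were close to the cells with 0 reads, with GREM1 at 147 rpm, CRTAC1 at 638 rpm and COL1A1 at 622 rpm. These cells had more genes detected (median 4482). Paired with matched cells of their own, they had ratios of -0.09 for GREM1 and 0.25 for WIF1, and 278 (2.69%) of 10323 genes were 2-fold higher and 305 (2.95%) 2-fold lower.

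**Figure D4:**
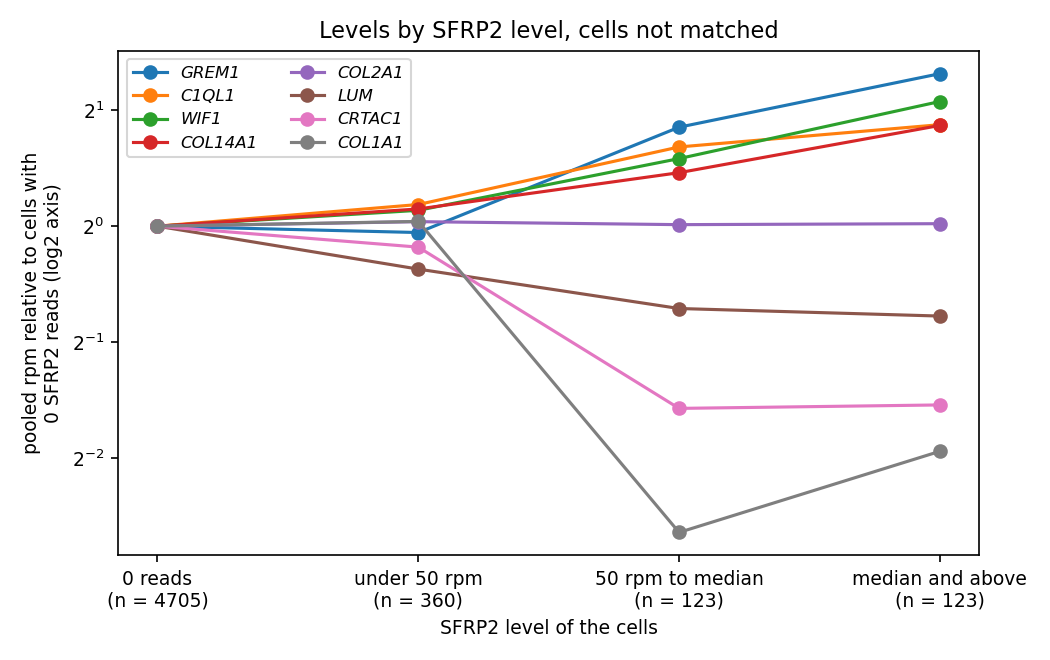
Pooled rpm of 8 genes relative to cells with 0 SFRP2 reads (log2 axis) in cells grouped by SFRP2 level, without matching on genes detected. GREM1, C1QL1, WIF1 and COL14A1 depart from 1 in both groups above 50 rpm and less below it, COL2A1 stays near 1, and LUM, CRTAC1 and COL1A1 lie lower in both groups above the limit.

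Markers of endothelial, myeloid and other blood cells were low. The endothelial list (9 of 10 genes counted, ESAM most abundant) summed to 16.2 rpm in the positive and 12.5 rpm in the matched cells, the myeloid list (8 of 11, CD68 most abundant, C1QA and FCER1G at 0 in the positive cells) to 19.5 and 22.2 rpm, and the leukocyte list (8 of 9) to 1.33 and 4.31 rpm. Mural and smooth muscle genes (8 of 9 counted, TAGLN most abundant, CNN1 at 0 in the positive cells) summed to 112 and 153 rpm. Their sum was lower in the positive cells of A951, A953 and A954 but higher in A952 (197 against 68.7 rpm), and its part in the higher MYL9 and MYH10 was not tested. The 16 counted genes of immediate early response and dissociation stress, of which FOS was most abundant in the positive and IER3 in the matched cells, summed to 2625 against 4457 rpm in A951, 2401 against 3747 in A952, 2615 against 3713 in A953 and 4353 against 4409 in A954. This sum was thus lower in the positive cells of each tag, by little in A954. Of the 15 genes compared, 7 were above 0 and 8 below, with a median of -0.03. For IER3 the median cell held 15.7 rpm in the positive and 20.4 rpm in the matched group. The part of these genes in the other differences was not tested. The synovial list (7 of 8 counted) was abundant in both groups, at 13663 and 16560 rpm, mostly PRG4, which is also a gene of the cartilage surface. Notochordal genes (8 of 10) summed to 45.1 and 25.6 rpm, of which NCAM1 made 39.2 rpm in the positive cells. This sum was higher in each tag, at 53.5 against 36.8 rpm in A951 and 66.2 against 28.0 in A952. It was 39.8 against 16.8 rpm in A953 and 40.0 against 28.9 in A954. Of the 6 notochordal genes compared, 2 were above 0 and 4 below, and their part in the other differences was not tested. Without the 4 positive cells that held 5 or more reads of PECAM1, RGS5 and PTPRC together, 460 genes were 2-fold higher and 522 lower.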

How the data were processed

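TAS-seq libraries of pooled AC and NP cells were used. The authors deposited counts, whole numbers of reads for each gene and cell column, with no normalization and no molecule identifiers. Their methods and the submitters' processing notes name HISAT2 2.2.1 for mapping to the cynomolgus genome and featureCounts 2.0.2 for strand-specific counting over whole genes, introns included, with reads that map to several places counted, so that near-identical genes can share reads. The tag library gave the tag of each cell. Columns marked as doublets (42) and columns with no tag (7) were left out, no doublet caller was run, and doublets within a tag cannot be seen. Depth was 24907 to 1649570 reads a cell (median 198057). The 5723 cell barcodes were distinct. A further deposited matrix of 1358 cells, of which 15 barcode numbers also occur here, was not used because the sample labels do not list it.

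From the counts, rpm was computed over all reads of a cell. Each SFRP2-positive cell was matched, within its tag and without reuse, to the cell with 0 SFRP2 reads nearest in genes detected, within 10%. Ratios are of pooled rpm, with a floor of 3 reads a group. Genes with a read in at least 10% of the cells of either group were compared. Named were SFRP2, KRT19, the 15 largest and 10 smallest log2 ratios among genes with a read in at least 20% of the cells of either group and the same sign in 4 tags, and examples from 31 lists. Some genes of this ranking are not reported here. The members and the lists were chosen with earlier results of these data known, and the other genes named were chosen after their values were seen. Only the pooled ratio was tested on simulated data, without the matching or the rule of the same sign in 4 tags. Alternatives changed the matching, the level, the depth, the SFRP2 and KRT19 limits, the filters on cells and genes, and the tags used. The filter on cells of other types used PECAM1, RGS5 and PTPRC, since C1QB and HBB, planned beside them, were not counted in the file. Python 3.11.15, numpy 2.4.6, pandas 2.3.3, scipy 1.17.1 and matplotlib 3.10.9 were used.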

Additional observations from a re-analysis of the deposited data

Results flagged for a closer look

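A signal outside the cells compared was present in the columns marked as doublets: 3 of 42 held SFRP2 reads, 69 reads in all, and 1 of them reached 385 rpm. The 7 columns with no tag held 0 SFRP2 reads.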

How the results depend on the processing

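The counts of genes 2-fold higher and lower (461 and 528) moved most. They were 104 and 431 against all cells with 0 SFRP2 reads, unmatched, and 134 and 436 against up to 10 matched cells, so that the higher count fell and the lower stayed within 1.5 times. They were 202 and 233 with cells thinned to 50000 reads, 21 and 8 by the difference of mean log2(rpm + 1), 796 and 892 at a limit of 200 rpm (135 positive cells), and 1096 and 1264 with 3 reads on each side as the only filter. Leaving out 1 tag gave 545 to 708 higher and 611 to 798 lower genes and 155 to 210 positive cells, the extremes without A954 apart from 545 and 210 (without A952) and 611 (without A951). The causes were not tested. The cartilage matrix median of -0.01 was 0.065 with matching over all tags, 0.064 at 0 KRT19 reads, 0.12 at a limit of 200 rpm, 0.24 by mean log2(rpm + 1), and -0.018 to 0.141 with 1 tag left out. The median of secreted WNT inhibitors was 0.30 by mean log2(rpm + 1). These list medians, and that of fibrous matrix, changed sign among the alternatives and have no settled direction. The median of limb and axial position genes was -0.07 against up to 10 matched cells, and those of R-spondins, BMP ligands, matrix proteases, inflammatory genes, proliferation and cartilage transcription factors also changed sign there or by mean log2(rpm + 1). None of the 25 ranked genes changed direction under the 20 alternatives: 446 of 500 values moved by less than the spread over tags and 54 by more. These genes had been chosen for extreme ratios with the same sign in every tag, so leaving out a tag could hardly reverse them. The other alternatives shared positive cells with the main comparison. The constant direction was thus largely set by the choice of genes and is not a separate check of them. The comparison with 10 cells, without the top cell of each side, and without mitochondrial reads were chosen after seeing the data. No paired analysis was possible because the labels give 1 transcriptome library and no replicate numbers. Cells were matched within tags instead. SFRP2 below 50 rpm was 1 read in 236 of 360 cells and up to 27 reads in the others.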

Other observations

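Among the 42 widely detected genes that were lower in SFRP2-positive cells were HMGCS1, MSMO1, SQLE and INSIG1, which were picked after their values were seen. No list of their pathway was drawn up, so nothing is said of the pathway. HMGCS1, an early enzyme of cholesterol synthesis, was at 152 against 345 rpm (log2 ratio -1.18), MSMO1 at 128 against 237 rpm (-0.89), SQLE at 115 against 212 rpm (-0.88) and INSIG1, which restrains sterol synthesis, at 143 against 235 rpm (-0.71). Each was lower in all 4 tags. MT1E, a metal-binding metallothionein, was at 1161 against 2355 rpm (-1.02), and its median cell level was 375 against 722 rpm. NOS2, the inducible nitric oxide synthase, was at 189.9 against 427 rpm (-1.17), and PTX3, a secreted pentraxin, at 62.5 against 200.4 rpm (-1.68). Their gaps lay in few cells. The median cell held 6.78 against 7.69 rpm of NOS2 and 2.89 against 3.66 rpm of PTX3, while single matched cells reached 8392 and 12063 rpm.

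Of 15 immediate early and dissociation stress genes compared, IER3 (359 against 887 rpm, -1.30) and FOSL2 (25.5 against 53.9 rpm, -1.08) were 2-fold lower and 0 were 2-fold higher, where 5.41% and 4.73% of all genes stood, with a median of -0.03. Against up to 10 matched cells these 2 ratios were -0.99 and -0.79, under 2-fold. The median was below 0 in each tag (-0.20, -0.49, -0.40 and -0.22), -0.26 against up to 10 matched cells and -0.29 by mean log2(rpm + 1). FOS (0.31), JUN (-0.03) and EGR1 (0.03) differed in direction among the tags. The stress response gene GADD45B was at 125 against 412 rpm (-1.72). Its median cell level was 8.76 against 9.50 rpm, and a single matched cell reached 12994 rpm. The inflammatory list had 13 genes compared, with a median of -0.14. Of these, 3 were 2-fold lower and 0 2-fold higher, where 5.41% and 4.73% of all genes stood. Only 1 of the 3 was also lower in all 4 tags, where 2.14% of all genes stood. This was TNFAIP3, an inhibitor of NF-kappaB signaling (5.97 against 25.6 rpm, -2.10). The medians were -0.04 for 18 hypoxia and glycolysis genes, -0.01 for 8 genes of hypertrophy and mineral (-0.47 against up to 10 matched cells), -0.33 for 6 R-spondins and regulators of WNT receptor turnover, 0.10 for 11 BMP, GDF and TGF-beta ligands, -0.05 for 9 hedgehog genes, 0.03 for 13 matrix proteases and inhibitors, 0.18 for 7 genes of the IGF axis, 0.37 for 7 limb and axial position genes (0.66, -0.46, -0.37 and 0.13 by tag), -0.13 for 4 proliferation genes and -0.19 for 14 WNT mediators and targets. Osteoblast genes summed to 24.95 against 43.96 rpm, Schwann and neural genes to 8.37 against 11.9 rpm and erythroid genes to 0.112 against 0.146 rpm, with 2 of 6 erythroid genes counted.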
